A study of Homo sapiens with 6 samples.

Results

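The expression of 9 genes for Ras GTPase-activating proteins (Ras GAPs) was examined in MCF10A cells, a nonmalignant human breast epithelial line, after knockdown of 1 of them, DAB2IP. The genes were taken by name from the count table, which holds 58735 genes: DAB2IP, RASAL1, RASAL2, RASAL3, RASA1, RASA2, RASA3, RASA4 and NF1, all of which were found. RNA-Seq had been performed 48 hours after transfection with a nontargeting siRNA pool (siControl, labelled WT) or with siRNA against DAB2IP (siDAB2IP, labelled as the knockdown), with 3 libraries in each group. Both groups came from the same line, were transfected and were grown, per the methods of the study, in medium with epidermal growth factor and insulin, which signal through Ras. The knockdown rests on 1 siRNA product whose sequences were not used here, so an effect of losing DAB2IP and an off-target effect of the siRNA cannot be told apart.

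Ras proteins are small GTPases that signal while bound to GTP and stop when the GTP is hydrolyzed. On their own they hydrolyze it slowly, and Ras GAPs speed this up by placing an arginine side chain, the arginine finger, into the active site. DAB2IP (also called AIP1) additionally binds kinases of the ASK1, NF-κB and PI3K-AKT pathways, and it is often silenced in tumors. NF1 (neurofibromin) and RASA1 (p120 RasGAP) are the best known members of the family, RASA2, RASA3, RASA4 and RASAL1 form the GAP1 group with C2 domains that bind membranes, and RASAL2 and RASAL3 are close relatives of DAB2IP.

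The shared chemistry of these genes can be seen in their coding sequences, which are shown because these proteins act through this site. A motif around the finger, spelled as phenylalanine, arginine, any 2 residues, serine or threonine, any residue, alanine, and serine or threonine, was found once in the principal protein of each of the 9 genes. It was found in 38 of 19940 annotated principal proteins, or 0.191%. The finger is residue 385 of 1132 in DAB2IP, 517 of 1280 in RASAL2, 500 of 1011 in RASAL3, 1276 of 2818 in NF1, 789 of 1047 in RASA1, 371 of 834 in RASA3 and 343 of 803 in RASA4. Below are 51 coding bases around it (GENCODE release 29, GRCh38), 5′ to 3′ on the strand of each gene, with the arginine codon in capitals.
DAB2IP: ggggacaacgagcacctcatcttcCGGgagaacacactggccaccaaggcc
RASAL3: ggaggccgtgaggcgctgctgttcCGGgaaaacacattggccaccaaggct
RASAL2: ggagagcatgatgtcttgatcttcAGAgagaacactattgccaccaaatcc
NF1: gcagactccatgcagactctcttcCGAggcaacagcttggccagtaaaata
RASA3: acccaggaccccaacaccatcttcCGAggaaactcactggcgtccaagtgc
RASA4: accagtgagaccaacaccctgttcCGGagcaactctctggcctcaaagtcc
RASA1: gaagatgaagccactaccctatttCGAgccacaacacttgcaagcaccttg

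These stretches lie within 1 coding exon at chr9:121763547-121763597 (+ strand, DAB2IP), chr19:15456554-15456604 (− strand, RASAL3), chr1:178445560-178445610 (+, RASAL2) and chr17:31235704-31235754 (+, NF1). In RASA3 (chr13:114017306-114018108, −), RASA4 (chr7:102595323-102595637, −) and RASA1 (chr5:87377037-87378442, +) they are split over 2 exons, and the positions are the outer bounds. Of the 17 residues encoded, RASAL3 shares 13 with DAB2IP and RASAL2 11. NF1, RASA2 and RASA3 share 7, and RASA1, RASA4 and RASAL1 share 6. RASAL2 and RASAL3 are thus nearest to DAB2IP among the members at this site, and both had their levels measured in the same libraries.

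Each siControl library held between 16353783 and 21916062 counts and each siDAB2IP library between 16669134 and 18085367. Levels are given in CPM (counts per library total, TMM-normalized with edgeR), and 3 counts, as many as a gene listed at 0 could still have, correspond to 0.139 to 0.187 CPM, a limit for counting error only. Differences were tested with the quasi-likelihood test of edgeR over the 15430 genes that passed its filter on low counts, and a gene was called when its adjusted p (Benjamini-Hochberg) was under 0.05. The median log2 fold change of all genes tested was 0.01. The labels do not say whether the libraries of a group came from separate cultures, so the p-values measure only the spread between these libraries, which may be technical. The cells carried the markers of their label: all 12 basal mammary epithelial markers, among them KRT5, KRT14 and TP63, had a mean of at least 1 FPKM. Their summed level was 3047 to 3680 FPKM in siControl and 1963 to 2438 FPKM in siDAB2IP. Of these markers 1 rose and 4 fell, beside 6.55% and 7.65% of all genes tested, and 4 log2 fold changes were positive and 8 negative. The siControl and siDAB2IP means were 816 and 415 FPKM for KRT5, 950 and 332 for KRT14 and 7.87 and 5.30 for TP63. LAMB3, the marker that rose, was at 181 and 366 FPKM. Of the markers of other cells, FOXA1 (luminal, 1.16 and 2.40 FPKM in siControl and siDAB2IP) and COL1A1 (fibroblast, 1.54 and 2.65 FPKM) rose, KDR (endothelial, 1.90 and 0.998 FPKM) fell, and the other 9 tested were not called. With the replicate number as a block, 1 luminal, 1 fibroblast, 2 endothelial and 5 basal markers fell. This stands beside 11.4% of all genes tested that fell in that fit, in which 1 luminal, 1 fibroblast and 1 basal marker rose. The summed levels of markers of other cells follow, in siControl and siDAB2IP. Luminal hormone-receptor markers summed to 5.89 to 7.77 and 6.09 to 7.41 FPKM (8 genes, with PGR and TFF1 at 0). Fibroblast markers summed to 12.9 to 23.0 and 11.9 to 16.7 FPKM (8 genes, mostly DCN at 15.5 and 11.0 FPKM). Leukocyte markers summed to 19.0 to 37.1 and 26.3 to 40.7 FPKM (8 genes, mostly CD14 at 29.9 and 33.9 FPKM, with CD3E at 0). Endothelial markers summed to 3.46 to 4.92 and 2.33 to 2.55 FPKM (6 genes). The part of these marker changes in the results below was not tested.

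Of the 9 Ras GAP genes 8 passed the filter. Of these 8, 2 were called, DAB2IP and NF1, and both fell, beside 7.65% of all genes tested that fell. DAB2IP was the target of the siRNA, so its fall came with the design, and NF1 was the only other member called. The counts and the median of members in this paragraph include DAB2IP. None of the 8 rose, beside 6.55% of all genes, while RASA1 was higher in every siDAB2IP library without passing the threshold. By the unadjusted p of edgeR, 4 members were under 0.05 (DAB2IP, NF1, RASA1 and RASA3), beside 30% of all genes tested. These are also the 4 whose groups did not overlap, as was the case for 35.9% of all genes tested. The median log2 fold change of the 8 members was −0.21, with 3 above 0 and 5 below. Libraries with the same replicate number deviated together, and with that number as a block 4 members were called (RASA1 rose, and DAB2IP, RASA3 and NF1 fell), against 21% of all genes tested in that fit. In bulk RNA, fewer cells carrying a transcript and less of it per cell cannot be told apart.

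**Figure D1:**
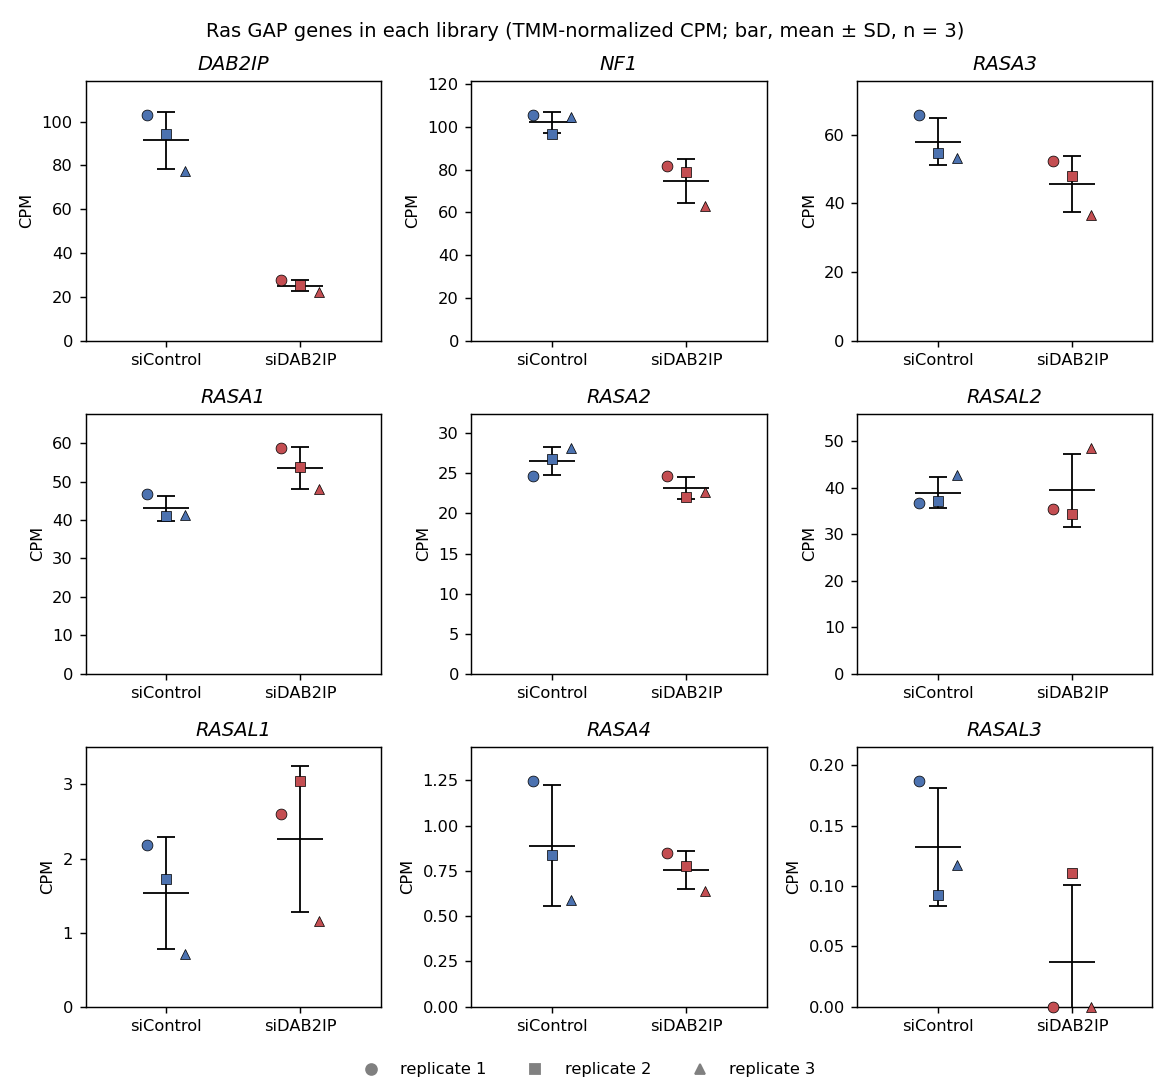
Level of each of the 9 Ras GAP genes (y axis, TMM-normalized CPM, from 0, scaled per gene) in the 3 siControl and 3 siDAB2IP libraries; symbols mark the replicate number and bars the mean ± SD. DAB2IP, NF1 and RASA3 are lower and RASA1 is higher in every siDAB2IP library, and the groups of the other 5 genes overlap.

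The targeted gene was examined first. DAB2IP (ENSG00000136848) lies on chromosome 9 from 121567057 to 121785530 on the + strand. Its level was 103.1, 94.2 and 77.4 CPM in siControl replicates 1, 2 and 3, from 1655, 2030 and 1318 counts. In siDAB2IP replicates 1, 2 and 3 it was 27.5, 25.6 and 22.4 CPM, from 487, 462 and 386 counts. The highest siDAB2IP library was thus well under the lowest siControl library, and the control libraries were the more spread out. The mean fell from 91.6 ± 13.1 to 25.1 ± 2.57 CPM (SD, n = 3 each), a log2 fold change of −1.86 (standard error 0.13, 95% interval −2.16 to −1.57, edgeR adjusted p = 9.7e-05). On average 27.5% of the RNA remained, and the remaining share was close to that in each pair of libraries with the same number: 26.6%, 27.1% and 28.9%. The exact permutation test gave p = 0.1 (two-sided), below which 3 libraries against 3 cannot go. The 1 gene annotated across DAB2IP on the other strand had no count in any library.

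NF1 (ENSG00000196712), the other member called, lies on chromosome 17 from 31094927 to 31382116 on the + strand. Neurofibromin is the tumor suppressor lost in neurofibromatosis type 1. Its level was 105.5, 96.6 and 104.4 CPM in siControl and 81.8, 78.9 and 63.0 CPM in siDAB2IP, in order of the replicate number. All siDAB2IP libraries were lower than all siControl libraries, and siDAB2IP replicate 3 was the lowest. The mean fell from 102 ± 4.88 to 74.6 ± 10.1 CPM (SD, n = 3 each), which left 73.0% of the control level, a log2 fold change of −0.45 (standard error 0.11, 95% interval −0.71 to −0.20, edgeR adjusted p = 0.028). This call was lost in 6 of 15 alternative analyses, with adjusted p between 0.0641 and 0.0705 when any 1 siControl library was left out and between 0.107 and 0.162 with limma on FPKM, whereas DESeq2 gave 0.009. The log2 fold change stayed between −0.53 and −0.35 in all 15.

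NF1 holds other genes in its introns, and 2 of those that lie on the opposite strand moved the other way. EVI2A (31317560 to 31321884) was at 1.56, 1.86 and 1.88 CPM in siControl and at 4.40, 3.10 and 4.75 CPM in siDAB2IP. It rose by 1.20 on the log2 scale (standard error 0.26, edgeR adjusted p = 0.0142). EVI2B (31303766 to 31314112) was at 2.68, 4.69 and 4.58 CPM in siControl and at 8.91, 7.86 and 6.67 CPM in siDAB2IP. It rose by 0.96 on the log2 scale (standard error 0.24, edgeR adjusted p = 0.0264), and for both genes every siDAB2IP library was above every siControl library. Both encode membrane proteins named for a common site of viral integration. The EVI2A call was lost in 3 of 15 alternatives and the EVI2B call in 8 of 15, namely limma without a filter and the fits without siControl replicate 1 or 2 for EVI2A, and the limma fits and those without any 1 siControl library or siDAB2IP replicate 1 or 2 for EVI2B. Their log2 fold changes lay between 0.67 and 1.37 and between 0.72 and 1.09. The strand used in counting is not given in the sources used here, so reads of NF1 and of these genes may not be fully separated. The mean counts were 1586 for NF1, 52.2 for EVI2A and 106 for EVI2B. Another gene there, OMG, had a mean of 3.5 counts and was not tested.

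**Figure D2:**
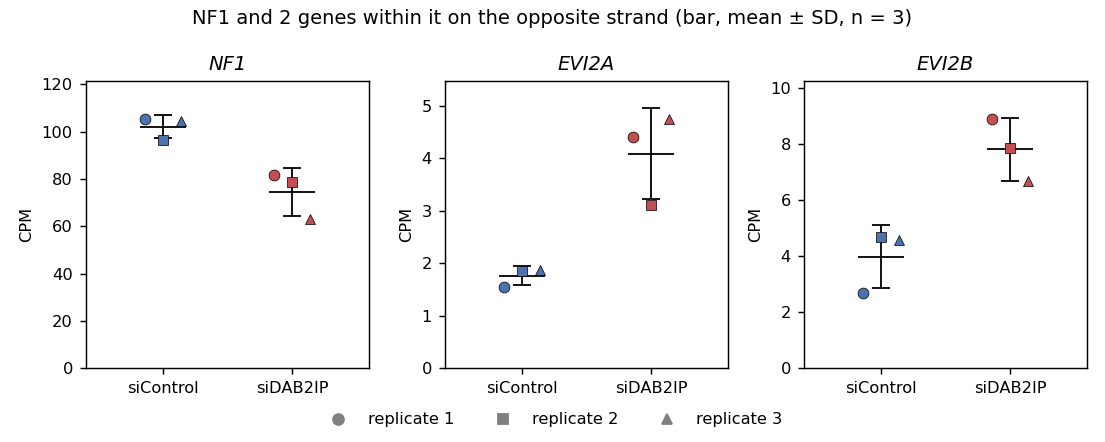
CPM of NF1 and of EVI2A and EVI2B, which lie within NF1 on the opposite strand, in each library (symbols, replicate number; bars, mean ± SD, n = 3; each y axis starts at 0). NF1 is lower in all 3 siDAB2IP libraries (63.0 to 81.8 CPM) than in siControl (96.6 to 105.5 CPM), and EVI2A and EVI2B are higher.

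RASA1, whose SH2 domains bring it to activated growth factor receptors, went the other way from NF1. It lies on chromosome 5 from 87267888 to 87391931 on the + strand. Its level was 46.7, 41.2 and 41.2 CPM in siControl and 58.8, 53.9 and 48.1 CPM in siDAB2IP. The groups did not overlap, by a margin of little more than 1 CPM between siControl replicate 1 and siDAB2IP replicate 3. The means were 43.0 ± 3.16 and 53.6 ± 5.37 CPM (SD, n = 3 each), a log2 fold change of 0.32 (standard error 0.11, 95% interval 0.07 to 0.56) that did not pass the threshold (edgeR adjusted p = 0.0835). It passed with the replicate block (edgeR adjusted p = 0.036), with scaling by library size only (edgeR adjusted p = 0.0488) and without siDAB2IP replicate 3 (edgeR adjusted p = 0.0243). CCNH, which overlaps RASA1 on the opposite strand, had a log2 fold change of −0.04 (edgeR adjusted p = 0.881).

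None of the 4 genes of the GAP1 group was called. RASA3, which binds inositol phosphates and also acts on Rap1, was at 65.8, 54.6 and 53.4 CPM in siControl and at 52.3, 48.0 and 36.5 CPM in siDAB2IP. The groups did not overlap, but siControl replicate 3 and siDAB2IP replicate 1 were nearly equal. The log2 fold change was −0.34 (standard error 0.14, 95% interval −0.67 to −0.02, edgeR adjusted p = 0.139), and the adjusted p was 0.0341 with the replicate block. When any 1 library was left out, the log2 fold change lay between −0.46 and −0.21, the latter in the fit without siDAB2IP replicate 3. RASA2 was at 24.7, 26.8 and 28.2 CPM in siControl and at 24.7, 22.1 and 22.7 CPM in siDAB2IP. Its groups met at replicate 1, and the log2 fold change was −0.20 (95% interval −0.46 to 0.06, edgeR adjusted p = 0.292).

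RASAL1 and RASA4, which respond to calcium, were barely expressed. RASAL1 had 35, 37 and 12 counts in siControl and 46, 55 and 20 in siDAB2IP, and in both groups replicate 3 was lowest. The log2 fold change of 0.56 came with a 95% interval from −0.44 to 1.56 (edgeR adjusted p = 0.444), so neither a rise to more than double nor a small fall is outside it. Each siDAB2IP library was above the siControl library of its number (119%, 177% and 165% of it), and with the replicate block the standard error went from 0.45 to 0.28 without a call (edgeR adjusted p = 0.174). The log2 fold change moved to 0.85 and 0.21 when siControl replicate 1 or 3 was left out, and to 0.29 and 0.88 when siDAB2IP replicate 2 or 3 was left out. RASA4 had 20, 18 and 10 counts in siControl and 15, 14 and 11 in siDAB2IP, with a log2 fold change of −0.23 (95% interval −1.11 to 0.65, edgeR adjusted p = 0.749). The value of RASA4 is uncertain for a second reason, its near copies on chromosome 7. Of its 2409 coding bases 4 differ from RASA4B, the stretch printed above is the same in both, and 79.4% of all windows of 150 bases in the RASA4 coding sequence, the length of 1 read, also occur in RASA4B. A further copy, RASA4CP, holds 20.9% of them, and 13.9% are in neither. RASA4B had 0, 1 and 1 counts in siControl and 0, 0 and 3 in siDAB2IP, and RASA4CP had 8, 6 and 6 and 20, 9 and 12. How reads with several matches were counted is not given in the sources used here.

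The members nearest to DAB2IP at the arginine finger were not called. RASAL2 was at 36.8, 37.2 and 42.7 CPM in siControl and at 35.4, 34.4 and 48.6 CPM in siDAB2IP. Replicate 3 was the highest of both groups, and the log2 fold change was 0.02 (standard error 0.15, 95% interval −0.30 to 0.34, edgeR adjusted p = 0.942). RASAL3, a gene of blood cells, had 3, 2 and 2 counts in siControl and 0, 2 and 0 in siDAB2IP. All libraries were at or under 3 counts, so no fold change is given. The interval of RASAL2 reaches up to a rise of 0.34 on the log2 scale.

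**Figure D3:**
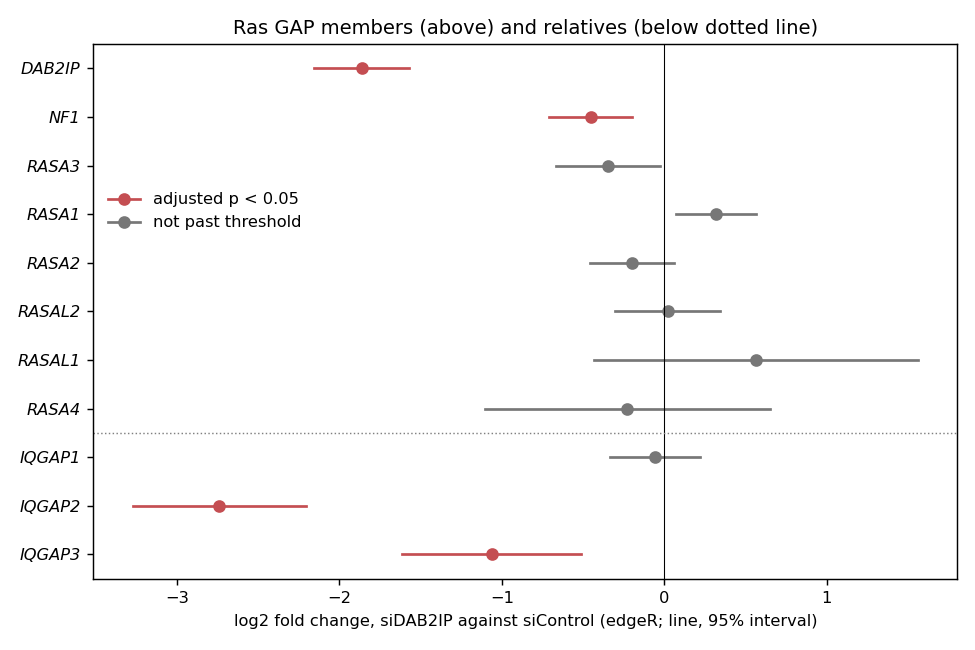
Log2 fold change of siDAB2IP against siControl (x axis, edgeR, with 95% intervals) for the 8 members tested and, under the dotted line, the 3 IQGAP genes; red marks an adjusted p under 0.05. DAB2IP (−1.86) and NF1 (−0.45) fell among the members and IQGAP2 (−2.74) and IQGAP3 (−1.06) among the relatives, and the intervals of RASAL1 and RASA4 are the widest of the members.

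Levels of different genes were compared per length, in the FPKM values of the authors. The lengths behind them were 27130 bases for NF1, 16044 for RASAL2, 9127 for DAB2IP and 4763 for RASA3. Whether the transcripts expressed have these lengths was not tested, and the order depends on them. By CPM, NF1 had the highest siControl mean of the members (102, beside 91.6 for DAB2IP and 57.9 for RASA3). In siControl the order of the mean levels was RASA3 (12.1 FPKM), DAB2IP (9.95), RASA1 (8.15), RASA2 (4.39), NF1 (3.73), RASAL2 (2.40), RASAL1 (0.316), RASA4 (0.109) and RASAL3 (0.0280). The ranges of RASA3 and DAB2IP, of DAB2IP and RASA1, and of RASAL1 and RASA4 overlapped between libraries. Within each siControl library, however, the first gene of each of these pairs was the higher. In siDAB2IP the order was RASA1 (10.1 FPKM), RASA3 (9.47), RASA2 (3.82), DAB2IP (2.73), NF1 (2.72), RASAL2 (2.43), RASAL1 (0.466), RASA4 (0.0922) and RASAL3 (0.00780). Here the ranges of RASA1 and RASA3, of DAB2IP and NF1, and of NF1 and RASAL2 overlapped. RASA1 was above RASA3 within each siDAB2IP library, while the order of the other pairs differed between libraries. By these FPKM values, DAB2IP thus went from the leading 3 members to the level of NF1, and RASA1 had the highest mean in place of RASA3.

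The FPKM of the 9 members was then added up in each library as a rough measure of the family's RNA, which rests on the same lengths. DAB2IP made up 25.1%, 25.5% and 21.7% of this sum in siControl and 8.55%, 8.58% and 8.53% in siDAB2IP. The siDAB2IP shares were nearly the same in the 3 libraries, although the level of DAB2IP itself differed between them. The mean share was 24.1 ± 2.08% and 8.55 ± 0.0249% (SD, n = 3 each), a difference of −15.6 percentage points (exact permutation test, two-sided, p = 0.1). The sum of all 9 was 41.1 ± 3.03 FPKM in siControl and 31.9 ± 3.27 FPKM in siDAB2IP (SD, n = 3 each; exact permutation test, p = 0.1), and all siDAB2IP libraries were lower. Without DAB2IP the sum of the other 8 was 31.2 ± 1.86 and 29.1 ± 2.99 FPKM, with overlapping groups (exact permutation test without pairing, p = 0.4). By replicate number it was lower in siDAB2IP in all 3 pairs, at 33.3 and 31.9, 30.0 and 29.5, and 30.2 and 25.98 FPKM. This sum adds RASA1, higher in siDAB2IP (8.15 and 10.1 FPKM), and RASA3, lower in siDAB2IP (12.1 and 9.47 FPKM), neither of which passed the threshold. RASA1 went from 19.8 ± 0.377% to 31.8 ± 0.240% of the sum (SD, n = 3 each; exact permutation test, p = 0.1), and RASA3 was at 29.3 ± 1.28% and 29.6 ± 2.53% (exact permutation test, p = 0.8). A share also moves when another member changes, so the share of RASA1 is not independent of the fall of DAB2IP.

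**Figure D4:**
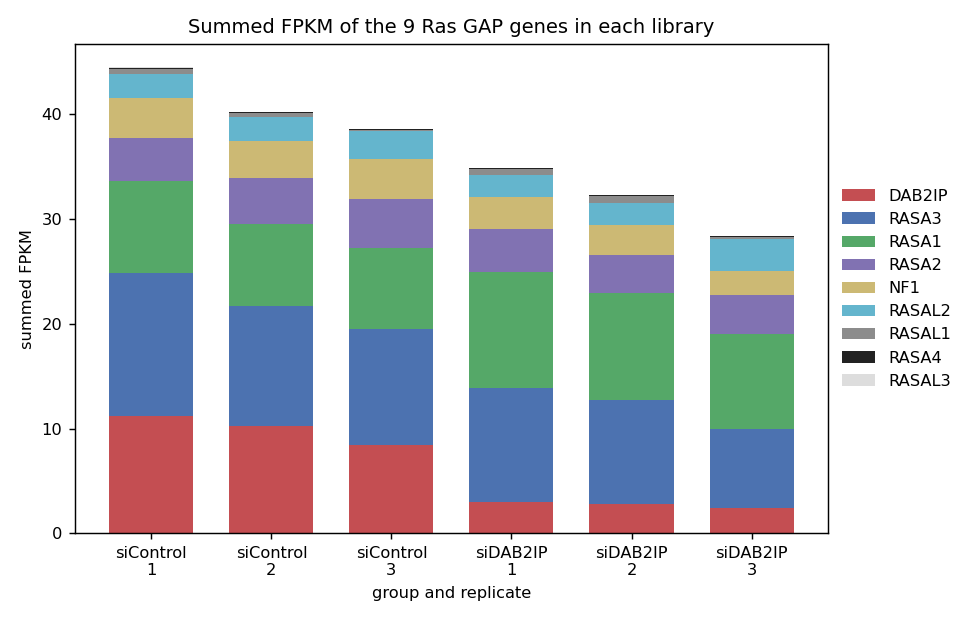
Summed FPKM of the 9 Ras GAP genes (y axis, from 0), stacked by gene, in each of the 6 libraries (x axis, group and replicate number). The DAB2IP block takes 21.7% to 25.5% of each siControl bar and 8.53% to 8.58% of each siDAB2IP bar, while RASA1 takes up the larger share in siDAB2IP.

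The IQGAP genes carry a domain related to that of the Ras GAPs but do not act as GAPs; their proteins are scaffolds for Rac1, Cdc42 and actin. All 3 IQGAP genes were tested, and 2 fell and none rose, beside 7.65% and 6.55% of all genes tested. IQGAP2 was at 11.8, 11.6 and 10.7 CPM in siControl and at 2.31, 1.61 and 1.16 CPM in siDAB2IP, and all siDAB2IP libraries were far under all siControl libraries (log2 fold change −2.74, standard error 0.24, 95% interval −3.27 to −2.20, edgeR adjusted p = 0.000229). It was called in all 15 alternatives, between −3.03 and, on the log2(FPKM + 1) scale, which understates the change of low genes, −1.001. IQGAP3, which is high in dividing cells, was at 108, 124 and 169 CPM in siControl and at 69.1, 83.3 and 39.4 CPM in siDAB2IP (log2 fold change −1.06, standard error 0.25, edgeR adjusted p = 0.0205), and its call was lost in the 3 limma fits and without siControl replicate 2 or 3, with a log2 fold change between −1.30 and −0.81 over all 15. IQGAP1 was by far the most abundant of the 3 and had a log2 fold change of −0.06 (edgeR adjusted p = 0.799).

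Genes that act with the Ras GAPs were taken by their roles, in 6 lists, and the numbers called in each can be read beside the 6.55% of all genes that rose and the 7.65% that fell. These shares come to less than 1 gene in each direction for the lists of 5 to 11 genes tested. Among the 6 Ras GTPases, the substrates, 1 rose and none fell, with a median log2 fold change of −0.10. MRAS, which with SHOC2 activates RAF kinases, rose from 5.03 ± 0.722 to 10.3 ± 3.23 CPM (SD, n = 3 each; log2 fold change 1.03, standard error 0.24, edgeR adjusted p = 0.0196). The call was lost in the 3 limma fits and without any 1 siControl library, with a log2 fold change between 0.53 and 1.16. HRAS and NRAS, which are mutated in some cancers, did not pass the threshold, with log2 fold changes of −0.02 and −0.35. Exchange factors load Ras or, for those named RAPGEF, mainly Rap with GTP. Of the 11 listed, 5 were tested (SOS1, SOS2, RAPGEF1, RAPGEF2 and RAPGEF6). None of these was called by edgeR or DESeq2, with a median of −0.03. An unadjusted p under 0.05, which 30% of all genes had, was reached by 2 of them. These were SOS2 (log2 fold change −0.34, edgeR adjusted p = 0.0985) and RAPGEF2 (0.29, edgeR adjusted p = 0.118). The list did not hold RAPGEF3, which rose in siDAB2IP (log2 fold change 1.98, standard error 0.14, edgeR adjusted p = 9.7e-05).

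Of the 24 Ras effectors and kinases of the RAF-MEK-ERK cascade 21 were tested, 1 rose and 2 fell, near the shares of all genes tested, with a median log2 fold change of −0.15. MAP2K1, the MEK1 kinase, was at 66.7, 59.2 and 54.6 CPM in siControl and at 93.9, 107 and 73.9 CPM in siDAB2IP (log2 fold change 0.61, standard error 0.14, edgeR adjusted p = 0.0198). KSR1, a scaffold that holds RAF and MEK together, was at 15.3, 13.8 and 15.2 CPM in siControl and at 4.85, 9.19 and 7.48 CPM in siDAB2IP (log2 fold change −1.04, standard error 0.21, edgeR adjusted p = 0.0128). BRAF fell from 22.0 ± 0.713 to 16.5 ± 0.403 CPM (SD, n = 3 each; log2 fold change −0.42, edgeR adjusted p = 0.0415). With the replicate block 1 rose and 5 of 21 fell, beside 11.4% of all genes that fell in that fit, with ARAF, TIAM1 and RASSF5 added (edgeR adjusted p = 0.0394, 0.0398 and 0.0146). TIAM1 and RASSF5 also fell with DESeq2 (DESeq2 adjusted p = 0.0287 and 0.0268). The KSR1 call was lost only in the 3 limma fits (−1.26 to −0.48 over all 15). The MAP2K1 call was also lost without siControl replicate 2 or 3 and without siDAB2IP replicate 1 or 2 (0.48 to 0.74), and the BRAF call held in 5 of 15 alternatives and was lost without any 1 library but siDAB2IP replicate 3 (−0.46 to −0.19).

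GAPs of other small GTPases formed a list of 11, all of them tested. With a median log2 fold change of 0.07, 1 rose, RAP1GAP2, a GAP of Rap1, and none fell. It was at 26.7, 28.4 and 28.8 CPM in siControl and at 37.6, 36.3 and 44.1 CPM in siDAB2IP (log2 fold change 0.49, standard error 0.11, edgeR adjusted p = 0.0207), a call lost in the 3 limma fits and without any 1 siControl library (0.39 to 0.54 over all 15 alternatives). With the replicate block RALGAPA2, a subunit of a GAP complex of Ral, fell as well (edgeR adjusted p = 0.0141). It also fell with DESeq2 (DESeq2 adjusted p = 0.0401). TSC1 and TSC2, the GAP complex of Rheb, were not called, with log2 fold changes of −0.09 and 0.07.

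Of the 16 binding partners of Ras GAPs 14 were tested, and 4 fell and none rose, with a median log2 fold change of −0.02. PIK3R1, the p85 subunit of PI3K, fell from 212 ± 16.7 to 134 ± 13.8 CPM (SD, n = 3 each; log2 fold change −0.66, standard error 0.11, edgeR adjusted p = 0.0054). G3BP1, a stress granule protein that binds RASA1, fell from 277 ± 9.24 to 181 ± 20.2 CPM (SD, n = 3 each; log2 fold change −0.62, standard error 0.11, edgeR adjusted p = 0.0067). Both were called in all 15 alternatives. AKT1 fell from 149 ± 11.5 to 116 ± 2.48 CPM (SD, n = 3 each; log2 fold change −0.37, edgeR adjusted p = 0.0314), and MAP3K5, which encodes the ASK1 kinase bound by DAB2IP, fell from 70.1 ± 5.09 to 51.5 ± 8.06 CPM (SD, n = 3 each; log2 fold change −0.44, edgeR adjusted p = 0.0429). Both calls were lost in the 3 limma fits, without any 1 siControl library and without siDAB2IP replicate 1, and that of AKT1 also without siDAB2IP replicate 2 (−0.43 to −0.33 for AKT1 and −0.52 to −0.32 for MAP3K5). SPRED1 and SPRED2, which bring NF1 to the membrane, were not called, with log2 fold changes of −0.21 and 0.11.

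The last list held 7 genes reported to control DAB2IP itself, and 3 of them fell, with a median log2 fold change of −0.24. SKP2, a ubiquitin ligase subunit, was at 31.3, 37.8 and 42.2 CPM in siControl and at 21.1, 21.4 and 20.4 CPM in siDAB2IP (log2 fold change −0.82, standard error 0.13, edgeR adjusted p = 0.0043), and it was called in all 15 alternatives. EZH2, the histone methyltransferase that silences DAB2IP in tumors, fell from 43.8 ± 4.91 to 31.5 ± 3.84 CPM (SD, n = 3 each; log2 fold change −0.48, edgeR adjusted p = 0.0363) and its call was lost in the 3 limma fits, without siControl replicate 2 or 3 and without siDAB2IP replicate 1 or 2 (−0.57 to −0.38). The other gene was AKT1, which is in both lists. SUZ12 and EED, the partners of EZH2, were lower in every siDAB2IP library without being called, with log2 fold changes of −0.23 and −0.24.

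**Figure D5:**
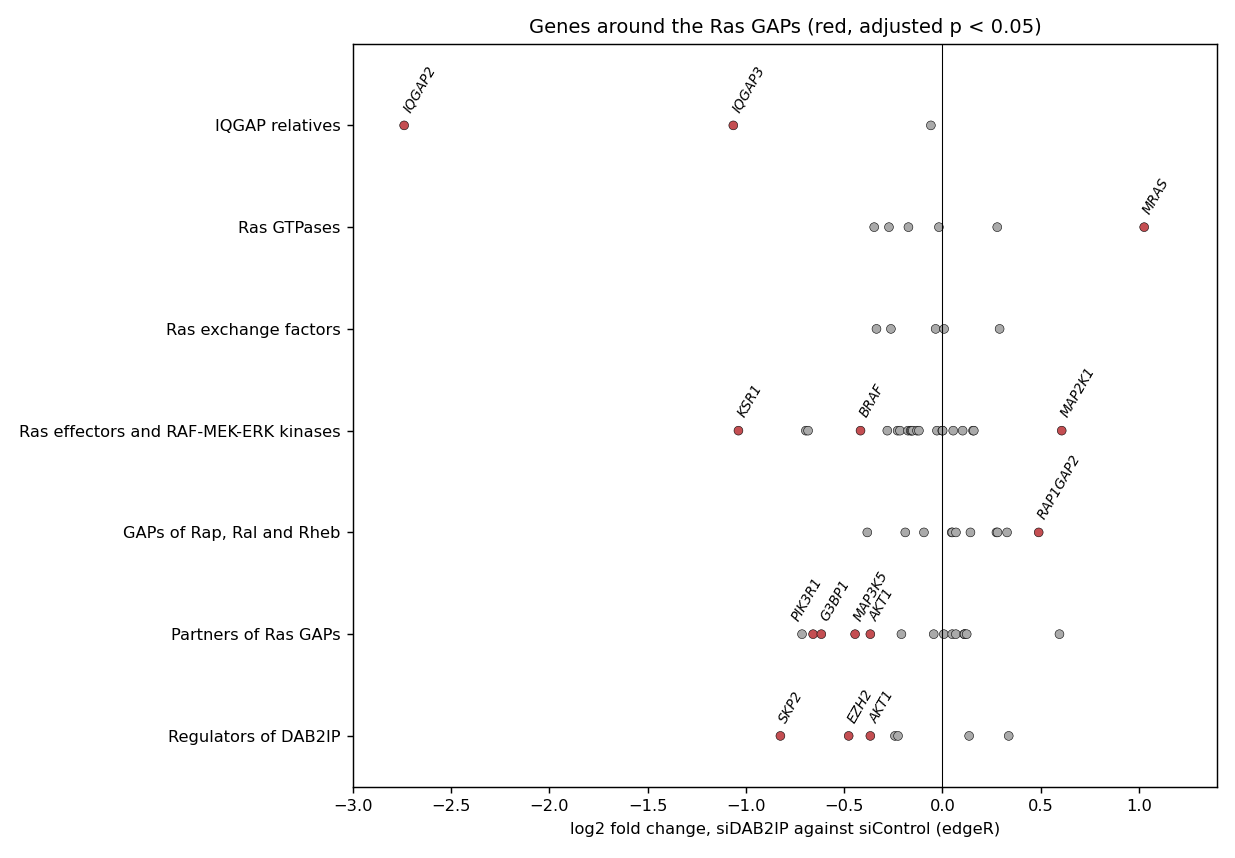
Log2 fold change of siDAB2IP against siControl (x axis, edgeR) of genes tested among the IQGAP relatives and in the 6 lists of genes that act with the Ras GAPs (rows), 1 dot per gene; red dots with names have an adjusted p under 0.05. The named genes of the partner and regulator rows all fell, while MRAS, MAP2K1 and RAP1GAP2 rose; AKT1 is in 2 rows.

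Across the 6 libraries, the log2 CPM of the other members was compared with that of DAB2IP as a description. Pearson's r was 0.91 for NF1, 0.78 for RASA3, 0.75 for RASA2, 0.41 for RASA4, −0.15 for RASAL2, −0.27 for RASAL1 and −0.75 for RASA1. These values contain the difference between the groups as well as the spread within them. Over all genes tested, the 3 whose pattern was most like that of DAB2IP (r = 0.998 each, n = 6) were RIN2, ANP32B and the noncoding gene MGC32805. ANP32B, a histone chaperone, was at 166, 161 and 143 CPM in siControl and at 55.3, 56.4 and 47.3 CPM in siDAB2IP (log2 fold change −1.56, standard error 0.11, edgeR adjusted p = 9.7e-05). RIN2, an exchange factor of Rab5 with a Ras-binding domain, changed far less (log2 fold change −0.27, edgeR adjusted p = 0.0665). It passed the threshold with the replicate block (edgeR adjusted p = 0.0458). The 3 most opposite genes were GTF2IP14 (r = −0.999), TMEM206 and AGPAT4 (r = −0.997 each). GTF2IP14, a pseudogene, had 4, 6 and 6 counts in siControl and 18, 18 and 21 in siDAB2IP, so its place in this order rests on few reads, and its call was lost with DESeq2, with at least 10 counts in every library and without siControl replicate 1 or 2. AGPAT4, a lysophosphatidic acid acyltransferase, rose from 29.9 ± 2.21 to 62.1 ± 6.87 CPM (SD, n = 3 each; log2 fold change 1.05, standard error 0.11, edgeR adjusted p = 0.000865).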

How the data were processed

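RNA-Seq data of 6 MCF10A libraries (3 siControl and 3 siDAB2IP) were used. The authors deposited a table of raw counts per gene and library and an FPKM table; each deposited FPKM equals the count over gene length and a library total that was 98.9% to 104.7% of the summed counts. The submitters' processing notes name STAR 2.6.1d, featureCounts 1.5.0-p3, DESeq2 1.20.0, edgeR 3.24.3 and hg38. All 58735 genes had the positions of GENCODE release 29.

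For the main fit, edgeR 4.0.16 (R 4.3.3) was run on the counts with filterByExpr, TMM factors, the 2 groups as the only term, glmQLFit, glmQLFTest and Benjamini-Hochberg adjustment over 15430 genes. Standard errors and 95% intervals were derived from the F statistic. Single values were tested by two-sided exact permutation over libraries. Totals ranged from 16353783 to 21916062 counts, so genes with few counts have wide intervals. The fit was tested on simulated data for this comparison (15430 genes, 200 changed). It recovered 98.0% of the genes changed by 2 and 61.2% of those changed by 1 on the log2 scale, with 11 false calls. Smaller changes were not simulated, so recovery at the size seen for the members other than DAB2IP (−0.45 to 0.56) was not tested. The data had more calls (2192) than the genes simulated as changed, and the simulation held no pairing by replicate number.

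The alternatives were DESeq2 1.42.0, RLE size factors, library size only, no filter, at least 10 counts in every library, the replicate number as a block, limma 3.58.1 on log2(FPKM + 1) and log2(FPKM + 0.1) with a mean of at least 0.1 FPKM, log2(FPKM + 1) without that filter, and leaving out each library. After subtraction of group means, libraries with the same replicate number in the labels correlated at 0.26, 0.15 and 0.25 across genes and those with different numbers at −0.28 to 0.02, and every same-numbered pair was above 0.1, which was read as pairing.

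The members and gene lists were chosen with earlier results of these data known. Named were the 9 members, genes that overlap or copy one, every called gene of a list (the 8 with the smallest p where more), the gene with the smallest p where none was called, and the 3 genes most like and most opposite to DAB2IP; other genes were chosen after their values were seen. Coding stretches were read from GENCODE 29 with Python 3.11.15 and Biopython 1.88. Some genes of these lists are not reported here.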

Additional observations from a re-analysis of the deposited data

How the results depend on the processing

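The log2 fold change of DAB2IP kept its direction and its call in all 15 alternatives, between −1.99 and −1.55. The share of DAB2IP in the summed FPKM differed by −16.8 to −14.9 percentage points in 8. Among these 8, CPM divided by gene length gives the same share by construction and so tests nothing. The number of members called, 2, was 4 with the replicate block, 3 with library size only (RASA1 added), 1 with limma on log2(FPKM + 1), on log2(FPKM + 0.1) and on log2(FPKM + 1) without a filter, and 1 to 3 when a library was left out (1 without siControl replicate 1, 2 or 3). The block, which pairs libraries by number, changed the calls of RASA1 and RASA3 and no other call among the members, and over all genes it moved the number of calls from 2192 to 3233. Leaving out a library gave 723 to 2524 calls and limma 378 to 982. When 1 library was left out, the log2 fold change of RASAL2 lay between −0.15 and 0.11 and was below 0 in 3 fits (siControl replicate 1 or 2, or siDAB2IP replicate 3, left out), and that of RASA4 lay between −0.46 and 0.046 and was above 0 in 1 (siControl replicate 1 left out). The cause was not tested, and neither gene was called in these fits. RASAL1, RASA4 and RASAL3 had at most 55 counts in a library, and the interval of RASAL1 also holds the spread between replicate numbers.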
